A study of Ovis aries with 62 samples.

Results

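The animals compared here were the heaviest and the lightest AUS sheep of each test block, 40 of the 62 sheep of the series. Within each of the 4 blocks, sheep were ranked by the live weight in the sample labels, the 5 heaviest formed the heavy group and the 5 lightest the light group, and ties went to the lower animal number. This gave 20 heavy and 20 light sheep, and left 22 sheep of middle weight that entered no test. All were adult Merino ewes on the same lucerne and oat chaff diet, offered as a fixed multiple of the maintenance requirement, so that a larger sheep was offered more feed. No group was treated: live weight is a trait of the animal, and anything else that differs between large and small ewes cannot be told apart from it in this comparison. According to the methods of the study the ewes came from 4 sires. Sire is not in the labels, so related sheep could not be matched between the groups and each *p* takes the sheep as independent. Each sheep gave 1 RNA sequencing library from the full-thickness ventral rumen wall.

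The rumen is the fermentation chamber of the sheep, where microbes break down feed to short chain fatty acids, CO2 and CH4. Its wall has an inner stratified squamous epithelium, whose upper layers cornify much like skin and whose lower layers absorb short chain fatty acids and turn butyrate into ketone bodies, and outer layers of smooth muscle that mix the contents. Feed intake, and with it CH4 production per day, is known to increase with body size, and feeding level is known to affect the growth of the rumen epithelium. The comparison asks whether heavy and light ewes on 1 diet differ in the expression of rumen wall genes.

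Live weight set the groups and is given as a description. Heavy sheep weighed 62.5 to 87.5 kg with a median of 71.25 kg, and light sheep weighed 47 to 64 kg with a median of 53.75 kg. The block-adjusted gap was 17.4 kg. The heavy group was heaviest in block 2, at a mean of 75.3 kg, and lightest in block 3, at 67.3 kg. The cut between heavy and middle sheep was a tie in block 1, where oz73 was taken and oz152 was not (both 66 kg), and in block 3, where oz143 was taken and oz151 was not (both 62.5 kg). In block 2 the last heavy sheep weighed 71.5 kg and the next sheep 66 kg, and in block 4 these were 71 and 70.5 kg. The last light sheep and the next one up weighed 55.5 and 58 kg (block 1), 60.5 and 62 kg (block 2), 58 and 59 kg (block 3), and 64 and 65 kg (block 4). The heaviest light sheep, oz175 of block 4, was therefore heavier than the lightest heavy sheep, oz143 of block 3.

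Expression was taken as deposited, in log2 CPM, which is the abundance of a gene's reads relative to its library on a log2 scale, for 16011 genes. The libraries rested on 4754572 to 11009866 assigned reads in heavy sheep (median 8065193) and 4208032 to 11675071 in light sheep (median 8715817.5). All 7 squamous epithelium markers, 7 smooth muscle markers and 5 fibroblast markers looked for were measured, at means of 4.84 to 13.53 log2 CPM, which fits the tissue named in the labels. Of the markers of other cells, 1 of 7 immune, 2 of 6 endothelial or pericyte, 1 of 5 nerve or glia, 2 of 7 adipocyte and 3 of 8 striated muscle genes had a symbol in the table. The share of muscle in a sample was followed by a muscle mean, the average log2 CPM over the large muscle gene cluster of the study. It was 5.98 ± 0.37 in heavy sheep and 5.87 ± 0.34 in light sheep (SD, *n* = 20 each). In block 1 it was 6.33 in heavy and 6.07 in light sheep. In heavy against light sheep of the other blocks it was 5.88 against 5.81 (block 2), 5.92 against 5.75 (block 3) and 5.79 against 5.84 (block 4). In a bulk sample, fewer cells of a type and less RNA per cell cannot be told apart.

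Heavy sheep ate more and produced more CH4 per day than light sheep, while CH4 per kg of feed was not separated. Dry matter intake (DMI) ran from 712 to 1729 g/d in heavy sheep with a median of 1493 g/d, and from 376 to 1332 g/d in light sheep with a median of 1194 g/d. The groups overlapped, with 13 of the 20 heavy sheep above the highest light sheep. DMI averaged 1370 ± 292 g/d in heavy sheep and 1074 ± 236 g/d in light sheep (SD, *n* = 20 each), a block-adjusted difference of 296 g/d (SE 77.9; 95% interval 138 to 454). In a 2-sided permutation test with the labels permuted within blocks, *p* was 0.00059, and 0.00118 after Benjamini-Hochberg adjustment over the 4 traits tested. With 7 sheep a side in each block the difference was 138 g/d and no longer passed (permutation *p* = 0.0849), and without oz151, a sheep of the enlarged heavy group of block 3 with a labelled DMI of 79.5 g/d, it was 178 g/d (permutation *p* = 0.0124, adjusted 0.0247).

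CH4 production was 15.6 to 34.6 g/d in heavy sheep (median 28.9) and 13.4 to 27.8 g/d in light sheep (median 21.1). As for DMI, 13 of 20 heavy sheep were above all light sheep. The means were 27.6 ± 4.81 g/d in heavy and 21.6 ± 3.45 g/d in light sheep (SD, *n* = 20 each), and the difference was 6.04 g/d (SE 1.29; 95% interval 3.42 to 8.66; permutation *p* = 8.00e-05, adjusted 0.00032). In blocks 1 and 2 all 5 heavy sheep were above all 5 light sheep, by 8.49 and 8.88 g/d on average (exact permutation *p* = 0.00794 in each, the smallest that 252 splits allow). The difference was 0.79 g/d in block 3 (*p* = 0.690, exact) and 6.003 g/d in block 4 (*p* = 0.127, exact). The DMI differences were 440 g/d (block 1, exact *p* = 0.00794), 209 g/d (block 2, exact *p* = 0.167), 95.6 g/d (block 3, exact *p* = 0.595) and 439 g/d (block 4, exact *p* = 0.0952). Block 3 thus had the smallest gap in both traits, and also the smallest gap in live weight, 14.3 kg against 16.4 to 19.7 kg in the other blocks. It held 14 sheep, against 16 in each other block. Over the 4 blocks the CH4 differences had the same order as the weight gaps, but the DMI differences did not. The DMI difference was 209 g/d at a weight gap of 19.7 kg in block 2 and 439 g/d at 16.4 kg in block 4. The labelled CH4 production of light sheep oz224 of block 3 is the same number, 23.9 g/d, as that of middle sheep oz151 of the same block.

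CH4 yield, which is CH4 production over DMI, was 16.8 to 27.9 g/kg DMI in heavy sheep (median 19.97) and 16.2 to 35.7 g/kg DMI in light sheep (median 20.2). These ranges lie over each other, and the means were 20.6 ± 2.87 g/kg in heavy and 20.9 ± 4.40 g/kg in light sheep (SD, *n* = 20 each). The difference was -0.33 g/kg (SE 1.10; 95% interval -2.56 to 1.89; permutation *p* = 0.776, adjusted 0.776). It took opposite signs in single blocks, at 3.89 g/kg in block 2 (*p* = 0.0556, exact) and -4.98 g/kg in block 4 (*p* = 0.0238, exact), where light sheep oz175 stood at 35.7 g/kg with the lowest DMI of all 40 sheep. Without that sheep the difference was -2.51 g/kg in block 4 (*p* = 0.0476, exact, 5 against 4 sheep) and 0.37 g/kg over all blocks (permutation *p* = 0.679). DMI per kg of live weight was 18.98 ± 3.78 g/d in heavy and 19.8 ± 4.70 g/d in light sheep (SD, *n* = 20 each), a difference of -0.86 g/d (SE 1.24; 95% interval -3.37 to 1.65; permutation *p* = 0.493, adjusted 0.657). Its divisor is the weight that chose the groups.

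**Figure D1:**
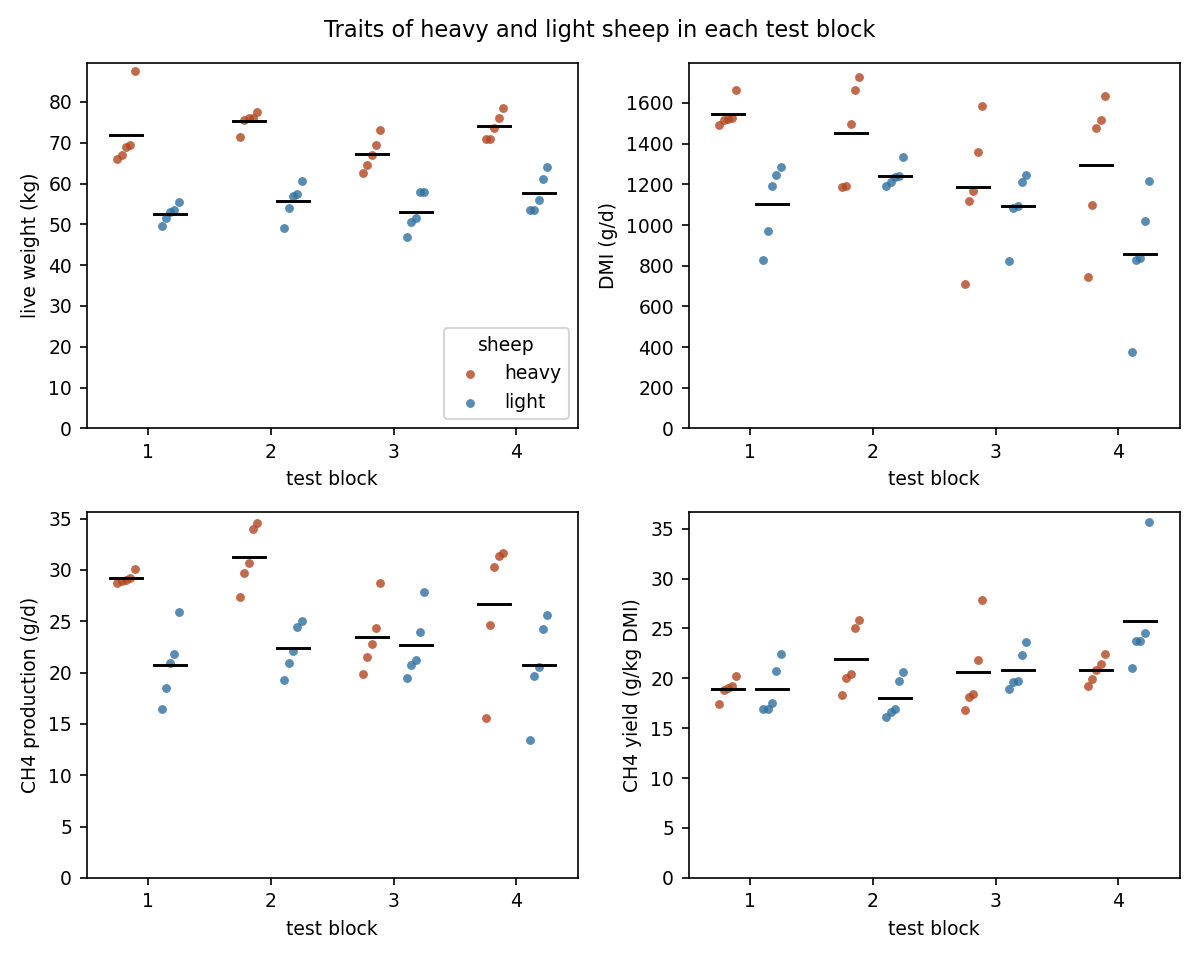
Live weight (kg), DMI (g/d), CH4 production (g/d) and CH4 yield (g/kg DMI) of each sheep by test block, with heavy sheep left of light sheep, 1 point per sheep and a line at each group's mean (5 sheep each). In blocks 1 and 2 every heavy sheep lies above every light sheep in CH4 production, while the CH4 yields of heavy and light sheep overlap in all 4 blocks.

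No gene differed between heavy and light sheep at the threshold set for all genes. With limma, block as a factor and Benjamini-Hochberg adjustment over 16011 genes, 0 genes were higher and 0 were lower in heavy sheep at an adjusted *p* under 0.05 (0% of genes tested), and the smallest adjusted *p* was 0.159. At an unadjusted *p* under 0.05 there were 430 genes higher in heavy sheep (2.69%) and 667 lower (4.17%), together 6.85% of genes, of which 25 higher and 74 lower differed by over 1 log2 unit. The median difference of all genes was 0.00 log2 units and the median SE was 0.12, or 0.08 over the 9939 genes that reached 3 CPM in every library. Limma's test of whether the difference varied between blocks called 0 genes as well (386 at an unadjusted *p* under 0.05, 2.41% of genes), and a limma regression on live weight over all 62 sheep called 0 genes (1451 at an unadjusted *p* under 0.05, or 9.06%, smallest adjusted *p* 0.0505). The values that follow are therefore described, and none of them passed the test across all genes unless an adjusted *p* under 0.05 is given.

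**Figure D2:**
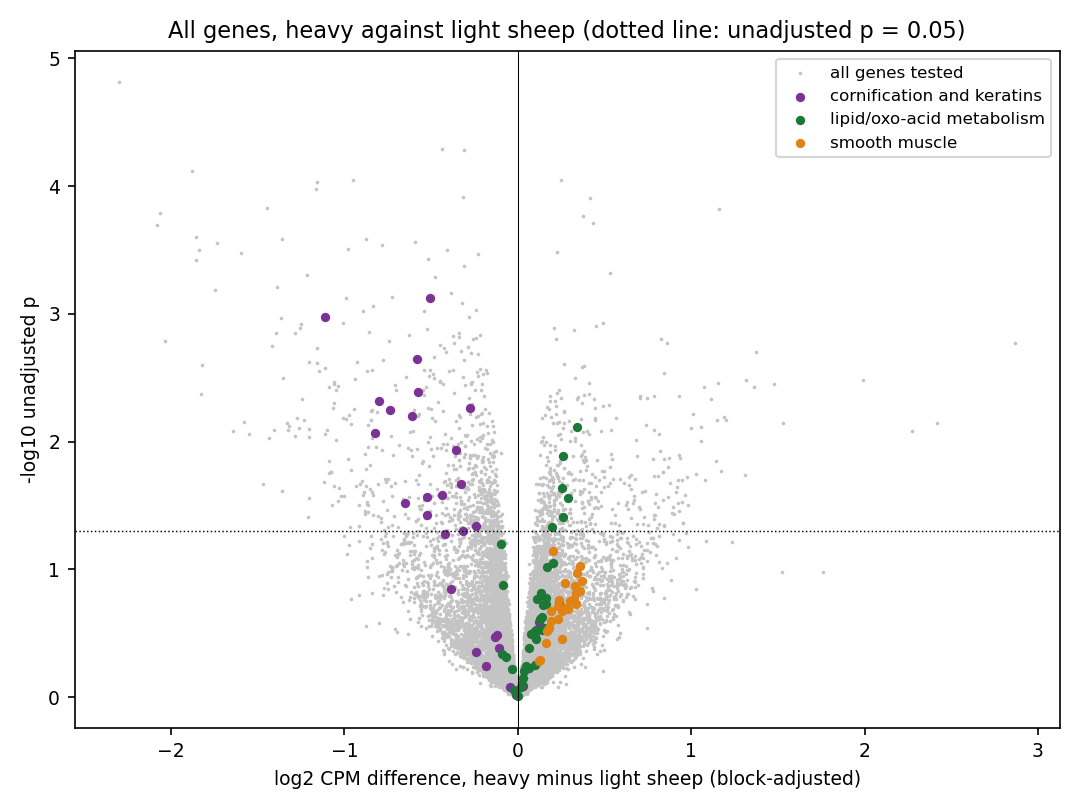
Block-adjusted difference in log2 CPM, heavy minus light sheep, against -log10 of the unadjusted limma *p* for 16011 genes (grey), with the cornification and keratin genes, the lipid/oxo-acid metabolism genes and the smooth muscle genes in colour and a dotted line at 0.05. Of the cornification genes, 26 of 28 lie left of 0 and 16 of them above the line. Of the lipid/oxo-acid genes, 33 of 41 lie right of 0 and 6 of them above the line. All 25 smooth muscle genes lie right of 0 and below the line.

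Genes of the cornifying upper layers of the epithelium mostly had lower means in heavy sheep. Of 28 genes of cornification and keratins, 26 had a lower mean in heavy sheep, beside 49.2% of all genes, and 16 were lower at an unadjusted *p* under 0.05, which is 57.1% of the list beside 4.17% of all genes, and none was higher. The median difference was -0.37 log2 units, against 0.00 for all genes, with none at an adjusted *p* under 0.05 (smallest 0.295). The 43 genes of the epithelial differentiation cluster of the study, a list that shares many of these members, all had lower means in heavy sheep with a median of -0.30, and 23 of them were lower at an unadjusted *p* under 0.05 (53.5%). The study built that cluster from correlations in libraries that include these, so its genes move together and their count is not independent evidence of a direction. Members do not count as replicates, and the lists were not tested as sets.

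*TGM3* encodes a transglutaminase that cross-links proteins of the cornified envelope. It ran from 9.53 to 11.95 log2 CPM in heavy sheep (median 10.93) and from 10.28 to 12.15 in light sheep (median 11.36), and 13 of 20 heavy sheep were below the light median. The difference was -0.58 (SE 0.19; limma adjusted *p* = 0.446). The other enzymes and envelope proteins were alike in direction. *SULT2B1*, the cholesterol sulfotransferase of keratinizing epithelium, was at 3.87 to 6.95 log2 CPM in heavy sheep (median 6.02) and 5.81 to 7.19 in light sheep (median 6.52), so that only the low end of the heavy group fell outside the light range (difference -0.58, SE 0.18, adjusted *p* = 0.418). *ALOX15B*, a lipoxygenase of stratified epithelium, was at 5.41 to 7.28 in heavy sheep (median 6.28) and 5.98 to 7.47 in light sheep (median 6.77), and 16 of 20 heavy sheep were below the light median (difference -0.51, SE 0.14, adjusted *p* = 0.295). The gene annotated as *SPRR-like*, of the small proline-rich family that is built into the envelope, had the largest difference of the list, -1.11 (SE 0.31, adjusted *p* = 0.349). It was at 2.77 to 8.33 log2 CPM in heavy sheep (median 6.33) and 6.22 to 8.51 in light sheep (median 7.21), and 16 of 20 heavy sheep were below the light median. Reads of near-identical family members such as the SPRR genes can be shared or lost where only uniquely mapped reads were counted, so the values of single members are uncertain.

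*LY6D*, a surface protein of stratified epithelium, was at 2.81 to 5.59 log2 CPM in heavy sheep (median 4.57) and 3.56 to 6.94 in light sheep (median 5.30). It differed by -0.80 (SE 0.27, adjusted *p* = 0.459), though in block 3 the heavy mean was the higher one, by 0.36. *S100A9* and *S100A12*, calcium-binding proteins of epithelium and myeloid cells, averaged 9.70 and 10.36 log2 CPM in heavy sheep and 10.43 and 10.97 in light sheep. *TGM1*, the other transglutaminase of the list, averaged 9.78 in heavy and 10.13 in light sheep, and the keratin *KRT78* averaged 11.10 in heavy and 11.62 in light sheep. *EHF* and *ELF3*, ETS family transcription factors of epithelia, differed by -0.28 and -0.33. These 6 genes from *S100A9* to *ELF3* were chosen from the list after their values were seen, as were *KRT6-B*, *PRD-SPRRII-like1* and *ZNF750*, and the adjusted *p* of the 6 lay between 0.483 and 0.651. The list was not uniform. At its other end, *KRT6-B*, *PRD-SPRRII-like1*, *ZNF750*, a transcription factor of terminal differentiation, and *PAX9*, a transcription factor of foregut epithelium, differed by 0.03, -0.05, -0.01 and 0.12.

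The order of blocks was the same for both lists. From block 1 to block 4 the median differences of the cornification genes were -0.75, -0.30, -0.20 and -0.17, and those of the epithelial differentiation genes were -0.72, -0.26, -0.20 and -0.05. The mean of the 43 epithelial differentiation genes in each sheep was 6.03 to 8.12 log2 CPM in heavy sheep (median 7.70) and 7.10 to 8.23 in light sheep (median 7.87). The heavy sheep below all light sheep were oz93 at 6.03, oz89 at 6.22 and oz165 at 6.93, all 3 in block 1. The low values were not confined to heavy sheep: in the same block the middle sheep oz171 (65.5 kg) at 5.70, the lowest of all 62 sheep, oz125 (58 kg) at 6.57 and oz109 (61.5 kg) at 6.65 were below all light sheep as well. The 3 heavy sheep had muscle gene means of 6.28, 6.61 and 6.51 log2 CPM, in the upper part of the range of 5.33 to 6.61 of heavy sheep and 5.02 to 6.55 of light sheep. Libraries oz89 and oz93 rested on 4754572 and 5297090 assigned reads, and oz165 on 7471235. Light sheep oz214 of block 4 stood at 7.94 on 4208032 reads. The study itself reported lower expression of these genes in block 1 than in the other blocks, and could not tell biological variation from technical issues. The part of block or depth in this gap was not tested. Without block 1 the medians were -0.23 for cornification and -0.17 for epithelial differentiation genes, with 8 of 28 (28.6%) and 10 of 43 (23.3%) lower at an unadjusted *p* under 0.05, beside 2.41% of all genes in that fit. With the muscle mean as a covariate the medians were -0.30 and -0.22, with 12 (42.9%) and 15 (34.9%) lower, beside 3.87% of all genes. With both at once, a choice made after the data were seen, they were -0.21 and -0.15. With the 3 heaviest and 3 lightest sheep a block the medians were -0.61 and -0.51, with 18 (64.3%) and 35 (81.4%) lower, beside 6.69% of all genes. With DMI as a covariate they were -0.40 and -0.30, with 9 (32.1%) and 18 (41.9%) lower, beside 4.35%. With CH4 production as a covariate they were -0.34 and -0.28, with 7 (25.0%) and 12 (27.9%) lower, beside 4.97%.

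**Figure D3:**
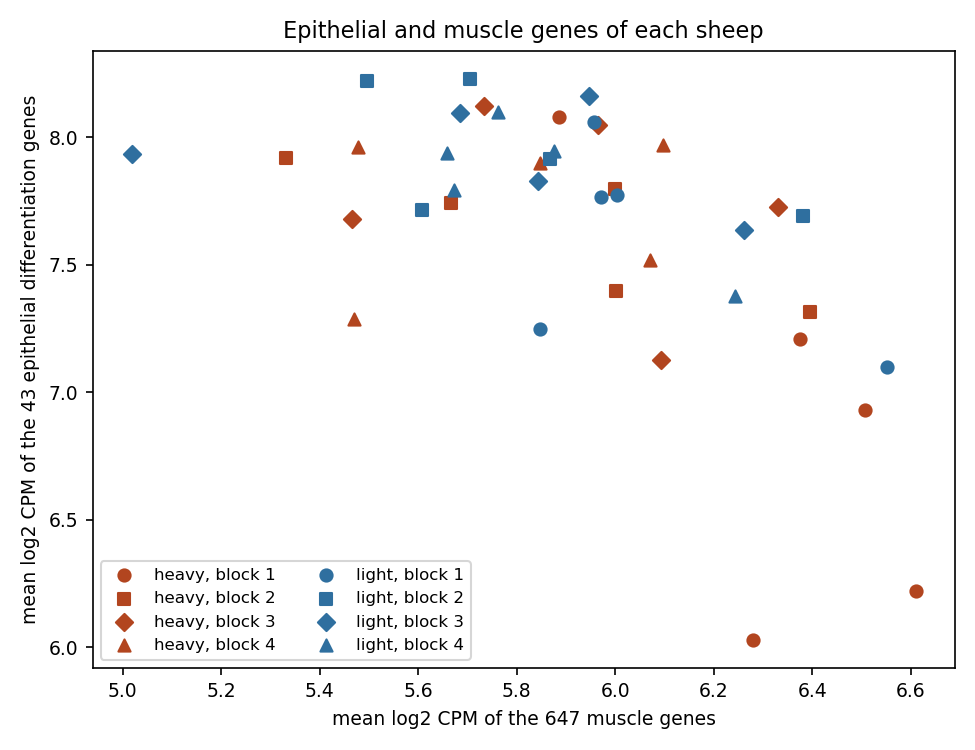
Average log2 CPM over the 43 epithelial differentiation genes of the study (y axis) against that over its muscle genes (x axis), 1 point per sheep, coloured by group with a marker for each test block. The 2 lowest points on the y axis, at 6.03 and 6.22, are heavy sheep of block 1, and the heavy and light sheep of blocks 2 to 4 lie over each other between 7.13 and 8.23.

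Several further genes of the smallest *p* belong to the same epithelial cluster. *PLA2G4E*, a phospholipase A2, was at 5.67 to 7.49 log2 CPM in heavy sheep (median 6.75) and 6.46 to 7.95 in light sheep (median 7.16), a difference of -0.45 (SE 0.14, adjusted *p* = 0.431). *SLC5A1*, the sodium-glucose cotransporter SGLT1, was at 5.39 to 7.92 in heavy sheep (median 7.06) and 6.33 to 8.14 in light sheep (median 7.50), a difference of -0.49 (SE 0.15, adjusted *p* = 0.431). In both, 15 of 20 heavy sheep were below the light median. *FAM129B*, a protein of cell junctions, had a smaller but more even difference of -0.27 (SE 0.08, adjusted *p* = 0.393): it was at 7.15 to 8.16 in heavy sheep (median 7.73) and 7.36 to 8.33 in light sheep (median 8.08), and 19 of 20 heavy sheep were below the light median.

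Outside that cluster, *SLC25A5*, the mitochondrial ADP/ATP translocator ANT2, had the smallest *p* of all genes with a symbol. It was at 6.08 to 6.93 log2 CPM in heavy sheep (median 6.60) and 6.07 to 7.37 in light sheep (median 6.87). With 18 of 20 heavy sheep below the light median and 9 light sheep above all heavy sheep, the difference was -0.31 (SE 0.08, adjusted *p* = 0.212), and the heavy mean was the lower one in each block, by -0.43, -0.47, -0.18 and -0.16. Heavy means were lower in all 4 blocks in 8.74% of all genes. *TMPRSS11A*, a membrane serine protease of airway and digestive epithelium, was at 5.63 to 8.32 in heavy sheep (median 7.71) and 6.86 to 8.75 in light sheep (median 7.99), a difference of -0.43 (SE 0.14, adjusted *p* = 0.431). It passed the test when only the 3 heaviest and 3 lightest sheep of each block were compared (difference -0.80, SE 0.16, limma adjusted *p* = 0.0441), a fit that called 1 gene higher (0.00625%) and 10 lower (0.0625%). The gene named *Metazoa_SRP*, an RNA of the signal recognition particle that occurs in many near-identical copies, differed by -0.51 (SE 0.16, adjusted *p* = 0.431), and its reads could be shared between copies.

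**Figure D4:**
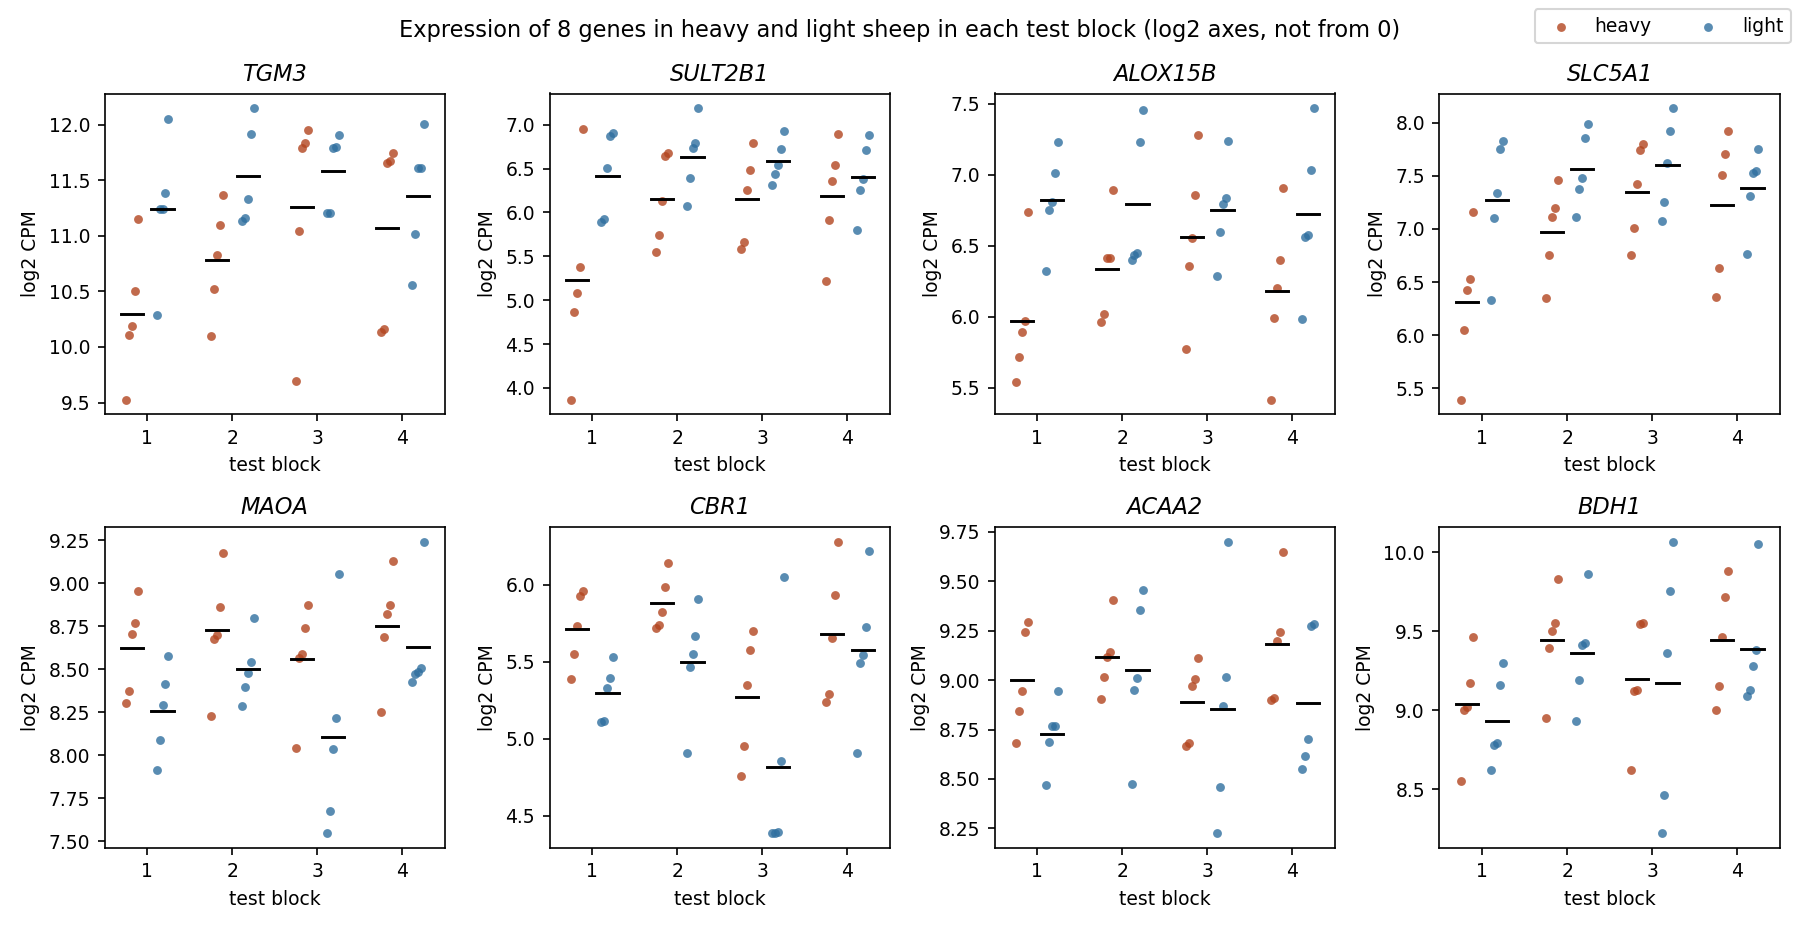
Log2 CPM of 8 genes in each sheep by test block, with heavy sheep left of light sheep, 1 point per sheep and a line at each group's mean (log2 axes that do not start at 0). The heavy means of *TGM3*, *SULT2B1*, *ALOX15B* and *SLC5A1* are the lower ones in every block, with the widest gap in block 1, while those of *MAOA* and *CBR1* are the higher ones in every block, and *ACAA2* and *BDH1* show gaps of up to 0.29.

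Genes of lipid and oxo-acid metabolism lay to the other side, with smaller differences. Of the 41 genes of this cluster of the study, 33 had a higher mean in heavy sheep and 6 were higher at an unadjusted *p* under 0.05 (14.6%, beside 2.69% of all genes), with a median difference of 0.10. Without block 1 the median was 0.07 and 1 of 41 was higher at that level (2.44%, beside 1.89% of all genes), and with the 3 heaviest and 3 lightest sheep a block it was 0.04, with 0 higher (5.08% of all genes) and 1 lower (2.44%, beside 6.69%). The cluster was built on libraries that include these, as above. *CBR1*, a carbonyl reductase, was at 4.76 to 6.28 log2 CPM in heavy sheep (median 5.71) and 4.38 to 6.22 in light sheep (median 5.43), a difference of 0.34 (SE 0.12, adjusted *p* = 0.502). *ABCC3*, an efflux pump for organic anion conjugates, differed by 0.26 (SE 0.10, adjusted *p* = 0.576), and *PDK3*, a kinase that shuts off pyruvate dehydrogenase, by 0.25 (SE 0.11, adjusted *p* = 0.641). *SLC16A1*, the monocarboxylate transporter MCT1, named here after its value was seen, averaged 10.11 log2 CPM in heavy and 9.84 in light sheep (difference 0.26, SE 0.12, adjusted *p* = 0.688).

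Ketone body synthesis turns acetyl-CoA and butyrate into acetoacetate and beta-hydroxybutyrate. All 12 genes of its list had a higher mean in heavy sheep, beside 50.8% of all genes, but none did so at an unadjusted *p* under 0.05, and the median difference was 0.14. The list also holds beta oxidation steps, and its members *OXCT1* and *ACSS1* are in the muscle cluster used here as well. *BDH1*, the dehydrogenase that makes beta-hydroxybutyrate, was at 8.55 to 9.88 log2 CPM in heavy sheep (median 9.28) and 8.22 to 10.07 in light sheep (median 9.24), so the light range enclosed the heavy one (difference 0.07, SE 0.12, 95% interval -0.18 to 0.32, adjusted *p* = 0.953). Of the oxidation steps, *ACADS* differed by 0.16, *ACAA2* by 0.17, *HADH* by 0.14, *ACAT1* by 0.10, *ECHS1* by 0.07 and *ECH1* by 0.04, with SE of 0.07 to 0.12. The acyl-CoA synthetase gene *ACSF2* differed by 0.09 (SE 0.09). *ACSS1*, the mitochondrial acetyl-CoA synthetase, had the largest difference, 0.38 (SE 0.19, adjusted *p* = 0.732), and *OXCT1*, which uses ketone bodies and is abundant in muscle, differed by 0.16 (SE 0.15).

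These small differences were not the same once other measures of the sheep were held constant. With DMI as a covariate the median became -0.05 for the ketone body genes, 10 of 12 being below 0, and -0.06 for the lipid and oxo-acid genes, 34 of 41 being below 0. The ketone body genes above 0 in that fit were *OXCT1* and *ACSS1*, at 0.33 and 0.49. With CH4 production as a covariate the medians were -0.12 and -0.12. With the muscle mean as a covariate they were 0.17 and 0.17, and 6 of 12 (50%) and 20 of 41 (48.8%) were higher at an unadjusted *p* under 0.05, beside 3.63% of all genes, with none at an adjusted *p* under 0.05. DMI was part of the difference between the groups, and 13 of 20 heavy sheep ate more than every light sheep. A fit that holds DMI constant therefore rests in part on its linear DMI term, over intakes at which there were no light sheep. The same holds for CH4 production, in which 13 of 20 heavy sheep were also above every light sheep. The study listed 14 genes for both CH4 traits, chosen partly on these libraries. All 14 had a higher mean in heavy sheep, with a median difference of 0.10, and 2 of them, *MAOA* and *CBR1*, were higher at an unadjusted *p* under 0.05 (14.3%, beside 2.69% of all genes). *MAOA*, the monoamine oxidase of the outer mitochondrial membrane, was at 8.04 to 9.18 log2 CPM in heavy sheep (median 8.70) and 7.55 to 9.24 in light sheep (median 8.42), a difference of 0.29 (SE 0.10, adjusted *p* = 0.488), and 15 of 20 heavy sheep were above the light median.

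Most genes of growth signalling and fuel use had higher means in heavy sheep, by small differences. More of them were higher at an unadjusted *p* under 0.05 once feed intake or CH4 production was held constant. Of 12 measured genes of growth hormone, steroid, thyroid and insulin signalling, 10 had a higher mean in heavy sheep, beside 50.8% of all genes. Their median was 0.11, against 0.00 for all genes, and none reached an unadjusted *p* under 0.05. The growth hormone receptor *GHR* was at 3.67 to 5.52 log2 CPM in heavy sheep (median 4.90) and 3.09 to 5.50 in light sheep (median 4.70), with a difference of 0.12 (SE 0.18, 95% interval -0.24 to 0.48). *STAT5B*, which carries its signal, differed by 0.13 (SE 0.10), the glucocorticoid receptor *NR3C1* by 0.15 (SE 0.09) and the thyroid hormone receptor *THRA* by 0.08 (SE 0.08). Also measured were *PPARD* at 0.14, *INPPL1* at 0.09, *IGFBP4* at 0.06, *FTO* at 0.05, *SOCS5* at -0.01 and *TSC1* at -0.04. In block 4 the median of this list was -0.13, against 0.13 to 0.17 in blocks 1 to 3. With DMI as a covariate the median was 0.18 and 6 of 12 were higher at an unadjusted *p* under 0.05 (50%, beside 4.51% of all genes). With CH4 production as a covariate it was 0.22 and 7 of 12 were higher (58.3%, beside 7.44%), and with the muscle mean as a covariate it was 0.02 and 0 were higher, with none of these at an adjusted *p* under 0.05. Most members of this list are in the muscle cluster that the muscle mean averages, so a fall in that fit was partly built in.

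Of 20 genes of fat and glucose handling, 15 had a higher mean in heavy sheep (median 0.07), beside 50.8% of all genes. Of the 20, 1 was higher and 2 were lower at an unadjusted *p* under 0.05 (5% and 10%, beside 2.69% and 4.17% of all genes). With DMI as a covariate the median was 0.27 and 4 were higher at that level (20%, beside 4.51% of all genes). With CH4 production as a covariate it was 0.38 and 8 were higher (40%, beside 7.44%). With the muscle mean as a covariate the median was -0.05, with 12 of 20 genes below 0 and 1 higher at that level (5%, beside 3.63%). Most members of this list, too, are in the muscle cluster that the muscle mean averages. Without block 1 the median was 0.00 and 0 were higher (1.89% of all genes). *ACLY*, which makes cytosolic acetyl-CoA for lipid synthesis, differed by -0.19 (SE 0.09, adjusted *p* = 0.659) and the glycolytic enzyme *PGK1* by -0.14 (SE 0.07, adjusted *p* = 0.703), and *PDK3* was the only member higher at an unadjusted *p* under 0.05. *ACACB*, the mitochondrial acetyl-CoA carboxylase, had the largest positive difference, 0.30 (SE 0.20), and the glycogen enzymes *PYGM* and *GYG1* and the fat droplet gene *PLIN4* differed by 0.21, 0.25 and 0.15 with SE of 0.28, 0.18 and 0.20. *AACS*, *LDHA* and *LPGAT1* were the other genes below 0, at -0.22, -0.03 and -0.02. *PPARGC1A*, *TBC1D1*, *PFKM*, *SREBF2*, *SLC2A4*, *UCP2*, *PDK2*, *PPP1R3C*, *ACSL1* and *SLC2A12* lay between 0.02 and 0.17. The 17 genes of acid and ion transport had a median of 0.01, with *SLC5A1* below and *ABCC3* and *SLC16A1* above 0 as given. In the 25 genes of the respiratory chain the median was -0.03, in 42 general metabolism genes -0.02, in 354 other metabolism genes -0.02 with 20 lower (5.65%) and 3 higher (0.85%) at an unadjusted *p* under 0.05, and in 7 proteasome genes -0.03.

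**Figure D5:**
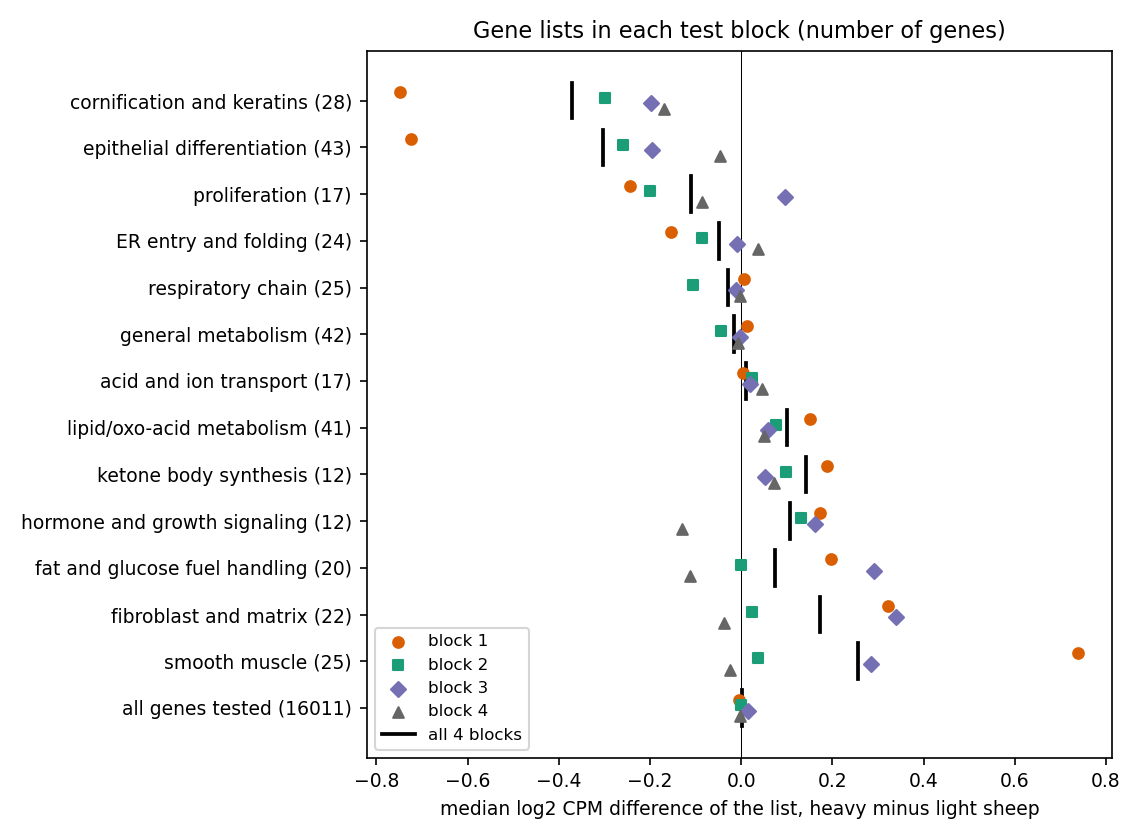
Median difference in log2 CPM, heavy minus light sheep, of each gene list in blocks 1 to 4 (markers) and over all 4 blocks (black line), with the number of genes in brackets and all genes tested in the bottom row. The cornification and epithelial differentiation lists lie left of 0 in all 4 blocks, down to -0.75 in block 1. The smooth muscle list runs from -0.03 in block 4 to 0.74 in block 1.

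Most muscle and matrix genes had higher means in heavy than in light sheep, with none at an adjusted *p* under 0.05. All 25 genes of smooth muscle contraction were above 0 with a median of 0.26 and none at an unadjusted *p* under 0.05, and the block medians were 0.74, 0.04, 0.28 and -0.03. Over the muscle cluster of the study the median was 0.10, with 581 genes above 0 and 66 below, and 19 higher at an unadjusted *p* under 0.05 (2.94%, beside 2.69% of all genes). *VCL*, the focal adhesion protein vinculin, averaged 8.55 ± 0.46 log2 CPM in heavy and 8.35 ± 0.39 in light sheep (SD, *n* = 20 each; difference 0.20, SE 0.11, adjusted *p* = 0.758 with limma). In the muscle system process genes of the study the median was 0.19, with *SLMAP*, a membrane protein of muscle, at 0.24 (SE 0.10, adjusted *p* = 0.651), and *SMYD1*, a muscle methyltransferase, had a difference of 0.38 (SE 0.20, adjusted *p* = 0.749) among 7 striated muscle genes with a median of 0.23. Collagens and other matrix genes were alike, with a median of 0.17 over 22 fibroblast and matrix genes and of 0.15 over the 50 matrix organization genes of the study. *COL6A2*, a chain of type VI collagen, differed by 0.22 (SE 0.11, adjusted *p* = 0.732). *MMP1*, a collagenase, lay the other way at -1.32 (SE 0.48, adjusted *p* = 0.509), on a median of 5.5 reads in heavy and 14 reads in light sheep. The block medians of the fibroblast and matrix genes were 0.32, 0.02, 0.34 and -0.04. The smooth muscle result depended on what was held constant. Without block 1 the median was 0.09, and with the muscle mean as a covariate it was 0.06. That mean averages the muscle cluster, which holds members of this list such as *VCL* and had a median of 0.00 in that fit. A fall towards 0 was therefore built into that fit and shows nothing about these genes. With DMI as a covariate the smooth muscle median was 0.47, and 7 of 25 genes were higher at an unadjusted *p* under 0.05 (28%, beside 4.51% of all genes). With CH4 production as a covariate it was 0.65, and 25 of 25 were higher (100%, beside 7.44%), as were 56.7% of the muscle cluster, with none at an adjusted *p* under 0.05. The DMI and CH4 fits both rest in part on their linear terms, since 13 of 20 heavy sheep were above every light sheep in each trait.

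Genes of dividing cells and of secretion mostly had lower means in heavy sheep, by small differences. Of the 17 proliferation genes 15 were below 0 with a median of -0.11, and of the 43 cell cycle genes of the study 34 were below 0 with a median of -0.07, with none at an unadjusted *p* under 0.05. The condensin subunit *NCAPG* differed by -0.18 (SE 0.12, adjusted *p* = 0.840). The medians of 16 type I interferon genes and 18 genes of antigen presentation and interferon were -0.03 and -0.01. Among 24 genes of entry to the endoplasmic reticulum and folding, 22 were below 0 with a median of -0.05, and 3 were lower at an unadjusted *p* under 0.05 (12.5%, beside 4.17% of all genes), led by *MANF*, a stress-induced secreted protein, at -0.20 (SE 0.09, adjusted *p* = 0.659). With the 3 heaviest and 3 lightest sheep a block 8 of 24 were lower (33.3%, beside 6.69%), and with the muscle mean as a covariate 0 were. Of 4 immune, 3 endothelial or pericyte, 3 adipocyte and 2 nerve or glia genes in the wider lists none reached an unadjusted *p* under 0.05. Their medians were -0.02, 0.18, 0.15 and -0.37, and few genes with a symbol stood behind each of them. The nerve or glia median lay between *MAP1B* at 0.03 and *NTSR1* at -0.77. *NTSR1* had a median of 1 read in heavy and 2 reads in light sheep, with 0 reads in 12 of the 40 libraries.

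The other named genes with higher means in heavy sheep were mainly members of the muscle cluster of the study, namely *SPTBN1*, *RDX*, *MACF1*, *FRY*, *AREL1* and *SATB1*. *SPTBN1*, a beta-spectrin, differed by 0.13 (SE 0.05, adjusted *p* = 0.529), *RDX*, the membrane-cytoskeleton linker radixin, by 0.21 (SE 0.08, adjusted *p* = 0.545), and *MACF1*, which links microtubules and actin, by 0.17 (SE 0.07, adjusted *p* = 0.650). *RDX* was at 6.52 to 7.50 log2 CPM in heavy sheep (median 7.11) and 6.22 to 7.35 in light sheep (median 6.86), and 18 of 20 heavy sheep were above the light median. *FRY*, a microtubule-binding protein, and *AREL1*, a ubiquitin ligase, differed by 0.27 (SE 0.09) and 0.23 (SE 0.08), both at an adjusted *p* of 0.488 with limma. *ATP8A1*, a phospholipid flippase, was at 7.11 to 8.13 in heavy sheep (median 7.69) and 6.51 to 8.18 in light sheep (median 7.39), with 18 of 20 heavy sheep above the light median (difference 0.30, SE 0.11, adjusted *p* = 0.529). With CH4 production as a covariate its difference was -0.036. *TANC2* and *SATB1* completed the named genes, at 0.28 (SE 0.12) and 0.36 (SE 0.15).

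The smallest *p* of all belonged to genes with few reads and no symbol. The added gene model Addition14 had a median of 0 reads in heavy and 6.5 reads in light sheep, and 14 of the 40 libraries had 0 reads of it (difference -2.30 log2 units, SE 0.47, adjusted *p* = 0.159). ENSOARG00000023896 had a median of 3 reads in heavy and 0 reads in light sheep, with 0 reads in 17 libraries (difference 1.97, SE 0.41, adjusted *p* = 0.159). At such counts the fitted size depends on the offset of 0.5 reads in the deposited values. Better measured were ENSOARG00000004527, at 7.57 to 8.91 log2 CPM in heavy sheep (median 8.33) and 7.83 to 9.08 in light sheep (median 8.76), with 19 of 20 heavy sheep below the light median (difference -0.44, SE 0.10, adjusted *p* = 0.179), and ENSOARG00000010733, at 6.17 to 6.999 in heavy sheep (median 6.65) and 6.08 to 6.61 in light sheep (median 6.39), with 17 of 20 above it (difference 0.25, SE 0.06, adjusted *p* = 0.179). No name or role is given to these IDs here.

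The 22 sheep of middle weight, 58 to 70.5 kg, were not part of the fit and are given as values. For *TGM3* they averaged 11.10 ± 0.69 log2 CPM, beside 10.85 ± 0.78 in heavy and 11.43 ± 0.49 in light sheep. For *SULT2B1* the middle mean was 6.12 ± 0.86, beside 5.93 ± 0.80 in heavy and 6.51 ± 0.39 in light sheep. For *MAOA* it was 8.50 ± 0.42, beside 8.66 ± 0.30 in heavy and 8.37 ± 0.41 in light sheep (SD throughout). In each of these 3 genes the middle mean lay between the other two. Over the 43 epithelial differentiation genes the middle mean was 7.65 ± 0.60, beside 7.50 ± 0.58 in heavy and 7.83 ± 0.31 in light sheep, and the spread of the light sheep was the smallest of the 3 groups.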

How the data were processed

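According to the methods of the study and the submitters' processing notes, the libraries were stranded and depleted of ribosomal RNA. Reads were placed on Ensembl sheep genes and on added gene models with TopHat and Bowtie2, and HTSeq counted those with a unique position. The table deposited by the authors is in log2 CPM from voom, which adds 0.5 to each read count and divides by a normalized library size. Whole reads could be recovered from 100% of the values (tolerance 0.01 reads). Each of the 40 libraries had between 216 and 651 genes at 0 reads, so the table was not limited to genes seen in all sheep. Depth sets the precision of low genes.

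Heavy and light sheep were compared with limma 3.58.1 in R 4.3.3 on the deposited values, with block as a factor, a variance trend and Benjamini-Hochberg adjustment over all genes at a threshold of 0.05. Traits were compared with 2-sided permutation tests (100000 permutations within blocks, exact within a block) in Python 3.11.15 with numpy 2.4.6, scipy 1.17.1 and pandas 2.3.3, and plotted with matplotlib 3.10.9. The fits were tested on simulated data. Symbols came from tables of the study and cover 1224 genes, and no coordinates or sequences were used. Named genes were, in each direction, the 12 genes with a symbol and up to 2 without one of smallest *p*, all measured genes of the ketone body, hormone signalling and fuel lists, and the member of smallest *p* in each direction of every other list. Some genes that this rule names are not reported here. The sheep groups, gene lists and tests were chosen with earlier results of these data known. Alternatives were other covariates, scalings, weights, filters and numbers of sheep, and leaving out each block and each sheep.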

Additional observations from a re-analysis of the deposited data

How the results depend on the processing

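The count of 0 genes in each direction held with no block term, with the muscle mean, DMI or CH4 production as a covariate, with genes at 3 CPM or more, without a variance trend, with voom or array weights, under both other scalings, with 7 sheep a side in each block, in the regression on live weight and without blocks 1 or 3. With the 3 heaviest and 3 lightest sheep a block, 1 gene was higher and 10 were lower, *TMPRSS11A* and the added gene model Addition46 among the lower ones. Without block 2, 1 gene was higher, and without block 4, 1 was lower. Leaving out 1 sheep gave 0 to 1 higher genes (1 without heavy sheep oz127 or light sheep oz59) and 0 to 2 lower genes (2 without heavy sheep oz29). Genes called only in such fits had few reads in part, such as ENSOARG00000023896 and Addition14 above. Most genes called with the 3 heaviest and 3 lightest sheep a block had more reads, such as *TMPRSS11A* at a mean of 1932 and ENSOARG00000010854 at 409. The lowest of them was ENSOARG00000008880 at 4.45. The cause of the changes in these calls was not tested.

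Of 99 named genes, 38 changed sign under at least 1 of the alternatives other than leaving out a sheep. Of these values 1 had an interval clear of 0 in either fit, that of *ATP8A1*, at -0.036 with CH4 production as a covariate. With 1 sheep left out, 77 of 3960 values changed sign. With that covariate the list medians were also -0.12 for ketone body genes and 0.38 for fat and glucose genes. List settings other than scaling, sheep numbers, blocks, muscle and DMI were chosen after the data were seen.

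The DMI difference was 138 g/d (permutation *p* = 0.0849) with 7 sheep a side, which brings in oz151 at a labelled 79.5 g/d, and 178 g/d (*p* = 0.0124) without that sheep, a setting chosen after the data were seen. CH4 production kept its call in all settings run, including each sheep left out (5.63 to 6.68 g/d), as did DMI with each sheep left out (264 to 329 g/d). No paired analysis was possible because replicate numbers only name the sheep of a group, and block is the factor that groups them. Low genes rest on few reads: 219 of the 1097 genes at an unadjusted *p* under 0.05 averaged under 20 reads.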
